A study of Homo sapiens with 8 samples.

Results

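The genes described here make, sense and move sterols and fatty acids. The set was taken by name from the array's annotation, as the non-control probes of 30 genes out of 36337 gene names on the array. It was chosen with earlier results of these data known, and the shares of all genes below are given for description. It holds 16 enzymes of sterol synthesis, 5 genes of sterol sensing, 3 of sterol transport and 6 of fatty acid synthesis. RNA came from HEK293 cells, a human embryonic kidney line, in which a Flp-In T-REx transgene (these lines are called FT293) was switched on with tetracycline. The 4 isogenic lines expressed GFP alone, GFP-HuR, GFP-TIA1 or GFP-TIAR, and RNA was taken on day 3 of tetracycline. TIA1 and TIAR are related RNA-binding proteins of the T-cell intracellular antigen family, and HuR is another RNA-binding protein that binds U-rich stretches of mRNA. Each line was measured on 2 one-colour arrays, given as independent biological replicates, and all lines received tetracycline, so that GFP-expressing cells were the control. For the second TIA1 sample a source label reads GFP-TIA2, while its title and genotype give TIA1, and it was used as TIA1. The labels give 1 stable line for each protein, and the part of line-to-line variation in the differences was not tested.

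Cells build cholesterol from acetyl-CoA through mevalonate, isoprenoids, squalene and lanosterol. When sterols are scarce, SCAP carries the SREBP transcription factors (encoded by SREBF1 and SREBF2) from the endoplasmic reticulum to the Golgi, where they are cleaved and released to activate the genes of sterol and fatty acid synthesis. When sterols are plentiful, the INSIG proteins hold SCAP back, and oxysterols activate the LXR receptors, which favour sterol export through genes such as ABCA1 and APOE.

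All arrays lay on 1 slide. Between 53.3% and 58.6% of 50599 probes were well above background on 7 arrays, but 86.1% were on the GFP 1 array, whose local background averaged 83.2 intensity units against 35.7 to 41.5 on the others. Replicates correlated at r = 0.997 for HuR, 0.994 for TIA1 and 0.993 for TIAR across probes, and at 0.947 for GFP. Of 8 genes that HEK293 cells are known to express, 6 had a probe well above background on all 8 arrays, NEFM on 7 and SOX11 on 0. Of 5 genes of other cell types, PTPRC (leukocytes) had such a probe on 8 arrays, ALB (liver) on 6, MYH7 (muscle) on 4, PECAM1 (endothelium) on 2 and COL1A2 (fibroblasts) on 1. Their part in the results below was not tested.

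Sterol synthesis enzymes were lower in TIA1- and in TIAR- than in HuR-expressing cells. In the TIA1 comparison 13 of 16 enzymes fell at an adjusted p under 0.05 and 0 rose, where 17.4% of the 21236 genes tested fell and 24.2% rose. In the TIAR comparison 13 of 16 also fell and 0 rose, against 12.2% and 18.7% of 21522 genes. The median difference of the 16 enzymes was -0.79 on the log2 scale (1.73-fold lower) for TIA1, where all genes had a median of 0.08, and -0.69 (1.61-fold lower) for TIAR, where it was 0.06. Both comparisons used the same HuR arrays and so are not independent. Unless stated otherwise, p-values come from limma on the 4 arrays of a comparison, with Benjamini-Hochberg adjustment over all probes tested. Values after ± are limma's standard errors.

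A gene was called down- or upregulated where it also differed by at least 2-fold. By that rule TIA1-expressing cells had 4 downregulated enzymes (HMGCS1, IDI1, SQLE and HSD17B7) in the comparison with HuR, where 4.74% of all genes were down- and 8.45% upregulated. In TIAR-expressing cells 3 of them (HMGCS1, IDI1 and SQLE) were downregulated, against 2.83% of all genes down- and 7.4% upregulated. Of all calls in the TIAR comparison 72.3% were upregulated, and 59.9% were after quantile normalization. For 14 of the 16 enzymes all 4 TIA1 and TIAR arrays lay below both HuR arrays, which held for 22.7% of 21866 genes. The number of enzymes that passed depended on having both HuR arrays, and was much lower in both comparisons without HuR 1 and without HuR 2. The number of all genes called, which also needs 2-fold, was then lower too, but by a smaller proportion. With 1 HuR array left out the median stayed between -0.83 and -0.77 for TIA1, and for TIAR it was -0.70 without HuR 1 and -0.69 without HuR 2. A fit with 1 array in a line assumes that this line varies like the other.

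**Figure D1:**
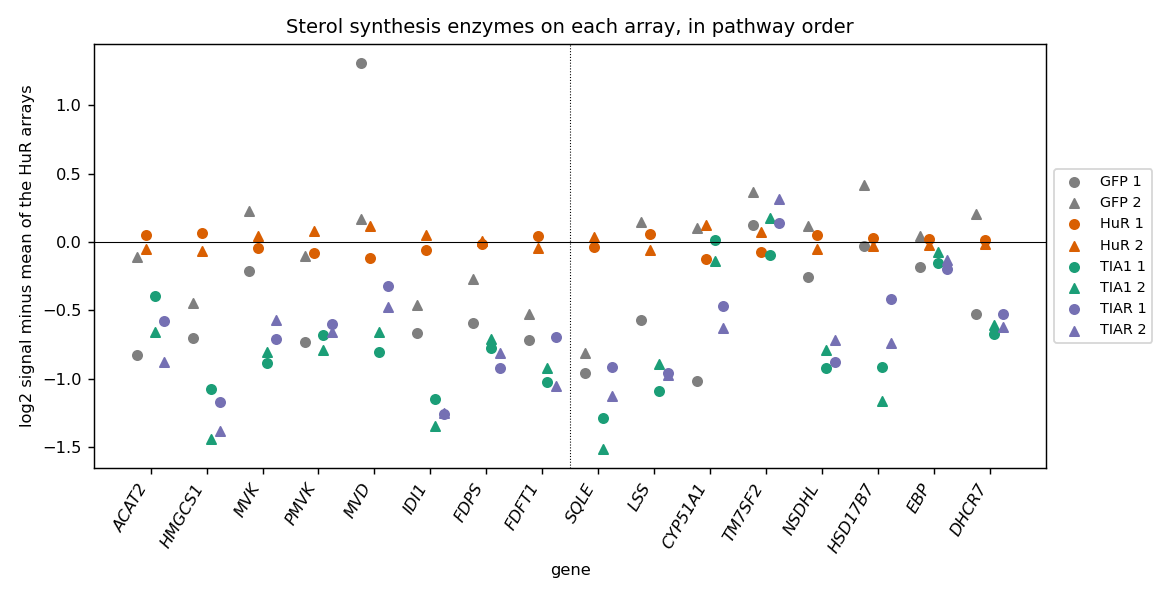
Signal of the 16 sterol synthesis enzymes on each of the 8 arrays, as log2 signal minus the mean of the HuR arrays for that gene, in pathway order from left to right. Circles are replicate 1 and triangles replicate 2, and the dotted line parts the steps to squalene from those after it. The medians over the enzymes are -0.84 and -0.79 on the TIA1 arrays, -0.65 and -0.73 on the TIAR arrays, -0.58 on GFP 1 and 0.07 on GFP 2.

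The steps from acetyl-CoA to squalene were lower in both lines. All 8 enzymes fell in TIA1- versus HuR-expressing cells and 7 of 8 in TIAR-expressing cells. Of all genes 17.4% and 12.2% fell. HMGCS1 is the enzyme that makes HMG-CoA. Its probe (hg19 chr5:43290117-43290176) gave log2 signals, relative to the array's 75th percentile, of 3.27 and 3.14 on the HuR arrays. It gave 2.13 and 1.77 on the TIA1 arrays, 2.04 and 1.83 on the TIAR arrays, and 2.50 and 2.76 on the GFP arrays. The HuR arrays were the highest, all 4 TIA arrays the lowest, and the GFP arrays lay between without overlap. HMGCS1 fell by 1.26 ± 0.16 in TIA1-expressing (adjusted p = 0.0079) and by 1.27 ± 0.13 in TIAR-expressing cells (adjusted p = 0.0077), or 2.39-fold and 2.42-fold, and both calls were lost without HuR 1 or HuR 2.

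IDI1, the isomerase that readies isopentenyl diphosphate for chain growth, gave the same order. Its probe (hg19 chr10:1086619-1086678) read 3.42 and 3.53 on the HuR arrays, 2.81 and 3.02 on the GFP arrays, 2.33 and 2.14 on the TIA1 arrays and 2.22 and 2.23 on the TIAR arrays. Again the HuR arrays were above, the TIA arrays below and the GFP arrays between, with no overlap. IDI1 fell by 1.25 ± 0.12 for TIA1 (adjusted p = 0.0044) and by 1.25 ± 0.10 for TIAR (adjusted p = 0.0057), where the call was lost without HuR 1 or HuR 2.

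The other enzymes of this stretch moved by less than 2-fold. ACAT2, which condenses acetyl-CoA in the cytosol, fell by 0.52 for TIA1 and by 0.73 for TIAR. The mevalonate kinase MVK fell by 0.84 and by 0.64, and the phosphomevalonate kinase PMVK by 0.74 and by 0.63. FDPS, which makes farnesyl diphosphate, fell by 0.74 and by 0.87, and FDFT1, which joins farnesyl units into squalene, by 0.97 and by 0.87. MVD, the mevalonate diphosphate decarboxylase, fell by 0.73 for TIA1, while its TIAR difference of -0.40 did not pass (adjusted p = 0.089). MVD was also the enzyme with the widest gap between the GFP arrays, with -0.04 on GFP 1 and -1.18 on GFP 2 against -1.47 and -1.23 on the HuR arrays.

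Of the enzymes after squalene, 5 of 8 fell for TIA1 and 6 of 8 for TIAR, against 17.4% and 12.2% of all genes. SQLE, the epoxidase that commits squalene to sterols, read 2.81 and 2.88 on the HuR arrays, 1.89 and 2.04 on GFP, 1.56 and 1.33 on TIA1 and 1.93 and 1.72 on TIAR. The HuR arrays stood above all others, and the TIAR arrays overlapped the GFP arrays. SQLE fell by 1.40 ± 0.12 for TIA1 (adjusted p = 0.0038), the most of the 16 enzymes, and by 1.02 ± 0.12 for TIAR (adjusted p = 0.010). The TIAR difference lay so near 2-fold that the call was lost in 9 of 16 alternative settings, among them leaving out HuR 1, HuR 2 or TIAR 2.

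HSD17B7 is a ketoreductase of the C4 demethylation steps and has 5 probes on the array. The brightest (hg19 chr1:162769658-162769717) read 0.44 and 0.39 on HuR, 0.39 and 0.83 on GFP, -0.50 and -0.75 on TIA1 and 0.00 and -0.32 on TIAR. GFP 1 lay just below and GFP 2 above the HuR arrays, and all 4 TIA arrays lay below both lines. HSD17B7 fell by 1.04 ± 0.12 for TIA1 (adjusted p = 0.0069), a call lost without HuR 1, HuR 2 or TIA1 2, and by 0.58 ± 0.14 for TIAR (adjusted p = 0.048). All 5 probes differed in the same direction, by -0.77 to -1.31 for TIA1 and -0.23 to -0.92 for TIAR. HSD17B7 has a near-identical pseudogene copy, and binding of its transcripts to these probes was not tested.

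LSS, the cyclase that forms lanosterol, fell by 0.99 and by 0.97, and NSDHL, another enzyme of C4 demethylation, by 0.86 and by 0.80. DHCR7, a reductase late in the pathway, fell by 0.64 and by 0.57. CYP51A1, the lanosterol demethylase, did not differ past the test for TIA1 (-0.06, adjusted p = 0.73) and fell by 0.55 for TIAR (adjusted p = 0.048). The sterol isomerase EBP gave -0.11 and -0.16 and the sterol reductase TM7SF2 gave 0.04 and 0.23, and none of these passed. EBP read 5.70 to 5.95 over the 8 arrays.

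**Figure D2:**
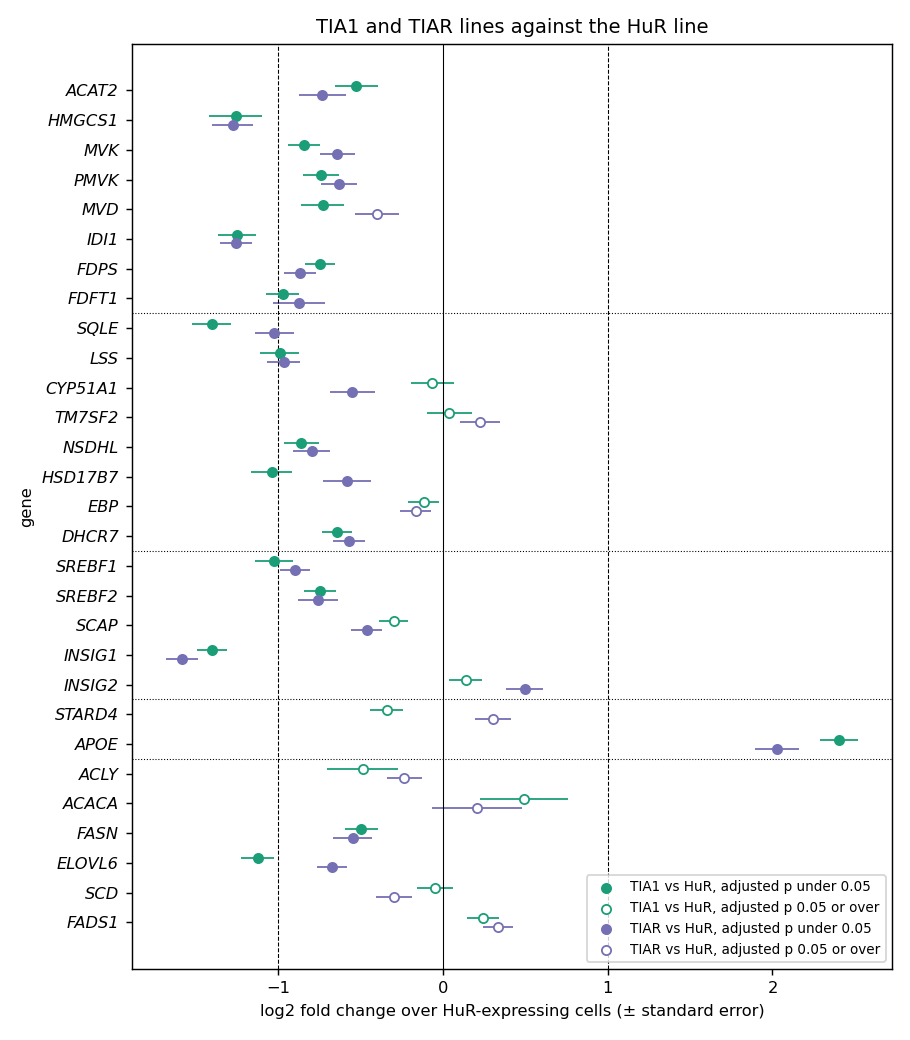
Log2 fold change of the 29 genes tested in TIA1- (green) and TIAR-expressing (purple) over HuR-expressing cells, with limma's standard error. Genes run from top to bottom as sterol synthesis to squalene, after squalene, sterol sensing, sterol transport and fatty acid synthesis, parted by dotted lines. Filled points passed an adjusted p of 0.05 and dashed lines mark 2-fold. Most filled points lie left of 0, and APOE stands apart at 2.40 and 2.03.

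Among the genes that sense sterols, 3 of 5 fell and 0 rose for TIA1, and 4 fell and 1, INSIG2, rose for TIAR. Of all genes 17.4% fell and 24.2% rose for TIA1, and 12.2% and 18.7% for TIAR. INSIG1, the SCAP-retaining protein whose own gene is an SREBP target, changed the most of these 5. Its probe (hg19 chr7:155101843-155101902) read 3.84 and 3.81 on HuR, 2.78 and 3.09 on GFP, 2.40 and 2.46 on TIA1 and 2.28 and 2.20 on TIAR. The lines did not overlap, in the order HuR, GFP, TIA1 and TIAR, although neither TIAR against TIA1 nor any line against GFP passed the test. INSIG1 fell by 1.40 ± 0.09 for TIA1 (adjusted p = 0.0027) and by 1.58 ± 0.10 for TIAR (adjusted p = 0.0042), or 2.64-fold and 2.99-fold. The call for TIAR was lost without HuR 1 or HuR 2.

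INSIG2 has a similar role but is not induced by SREBPs in the same way, and its signals ran the other way. They were -0.09 and -0.21 on TIAR, -0.54 and -0.48 on TIA1, -0.72 and -0.58 on HuR and -1.17 and -1.36 on GFP. The GFP arrays were lowest and the TIAR arrays highest. INSIG2 rose by 0.50 ± 0.11 in TIAR- versus HuR-expressing cells (adjusted p = 0.038) and differed by 0.14 for TIA1 (adjusted p = 0.33). Its other probe gave 0.44 for TIAR and -0.14 for TIA1, neither of which passed.

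SREBF2, which encodes the SREBP most tied to sterol genes, fell by 0.74 ± 0.10 for TIA1 and by 0.76 ± 0.12 for TIAR (adjusted p = 0.0089 and 0.019). Its signals were 1.76 and 1.89 on HuR, 1.26 and 1.66 on GFP, 1.06 and 1.10 on TIA1 and 0.97 and 1.17 on TIAR, so that only the TIA lines overlapped each other. SREBF1, whose SREBP-1c product is tied to fatty acid genes, fell by 1.02 ± 0.11 and by 0.89 ± 0.09 at its brighter probe (hg19 chr17:17715419-17715478; adjusted p = 0.0062 and 0.0081). The dimmer probe, at chr17:17715304-17715363, gave 0.21 and 0.10 and did not pass. SREBF1 was called downregulated for TIA1 alone, and that call was lost in 10 of 16 alternative settings, among them leaving out HuR 1, HuR 2 or TIA1 1. SCAP gave -0.30 for TIA1 (adjusted p = 0.059) and fell by 0.46 for TIAR (adjusted p = 0.030).

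Promoter sequence is shown for 4 of these genes because SREBP-dependent promoters classically pair a sterol regulatory element with a CCAAT box, the site of the cofactor NF-Y. RefSeq windows (GRCh38.p14, 250 bases before to 50 after a start site) matched 26 of the 30 genes, and the letters CCAAT were searched on both strands (they read ATTGG on the gene's strand where the box lies on the other). The box stood in the windows of 18 of 26 genes, 11 of 13 sterol enzymes and 3 of 5 fatty acid genes, against 39.7% of 27305 genes. More than 1 copy was found in 9 of 13 sterol enzymes and in 12.9% of all genes. The element TCACNCCAC, searched on both strands, matched 1 of 26 genes, SREBF2, and 1.39% of all genes. Below are 180 bases upstream of a start site on the gene's strand, with capitals for matches of the box or the element on either strand: SREBF2 (chr22:41832925-41833104, + strand) for its element, MVK (chr12:109573614-109573793, + strand) for the 4 CCAAT boxes in the stretch shown (5 in its window), HMGCS1 (chr5:43313413-43313592, - strand) and INSIG1 (chr7:155297698-155297877, + strand) as downregulated genes.
SREBF2: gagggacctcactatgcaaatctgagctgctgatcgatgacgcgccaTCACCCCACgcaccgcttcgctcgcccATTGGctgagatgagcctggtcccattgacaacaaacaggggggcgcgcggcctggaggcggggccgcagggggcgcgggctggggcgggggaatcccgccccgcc
MVK: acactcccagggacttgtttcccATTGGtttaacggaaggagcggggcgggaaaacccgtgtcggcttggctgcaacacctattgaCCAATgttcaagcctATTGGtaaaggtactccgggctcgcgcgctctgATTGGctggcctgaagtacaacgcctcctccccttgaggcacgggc
HMGCS1: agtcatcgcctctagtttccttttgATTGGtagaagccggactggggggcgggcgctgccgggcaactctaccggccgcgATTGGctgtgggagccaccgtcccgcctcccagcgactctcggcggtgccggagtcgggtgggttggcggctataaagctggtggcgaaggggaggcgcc
INSIG1: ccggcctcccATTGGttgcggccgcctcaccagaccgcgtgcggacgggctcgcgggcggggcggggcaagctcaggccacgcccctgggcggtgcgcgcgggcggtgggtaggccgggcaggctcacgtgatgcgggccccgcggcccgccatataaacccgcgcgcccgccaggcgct
These are matches of letters in a reference sequence, and binding at them was not measured.

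In sterol transport the direction was reversed for APOE, an apolipoprotein that carries cholesterol in lipoproteins. APOE read 1.68 and 1.59 on HuR, 3.02 and 3.38 on GFP, 3.53 and 3.80 on TIAR and 3.93 and 4.14 on TIA1. The HuR arrays stood apart below all others, and the GFP arrays lay below the TIA arrays. APOE rose by 2.40 ± 0.12 for TIA1 (5.29-fold, adjusted p = 0.0020) and by 2.03 ± 0.13 for TIAR (4.07-fold, adjusted p = 0.0048), the largest change among the 29 genes tested and the single upregulated member. The TIAR call was lost without HuR 2. STARD4, which ferries sterol between membranes, gave -0.34 for TIA1 (adjusted p = 0.056) and 0.31 for TIAR (adjusted p = 0.11). ABCA1, the cholesterol exporter, was not tested: of its 2 probes 1 was well above background on GFP 1 and neither on any other array.

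**Figure D3:**
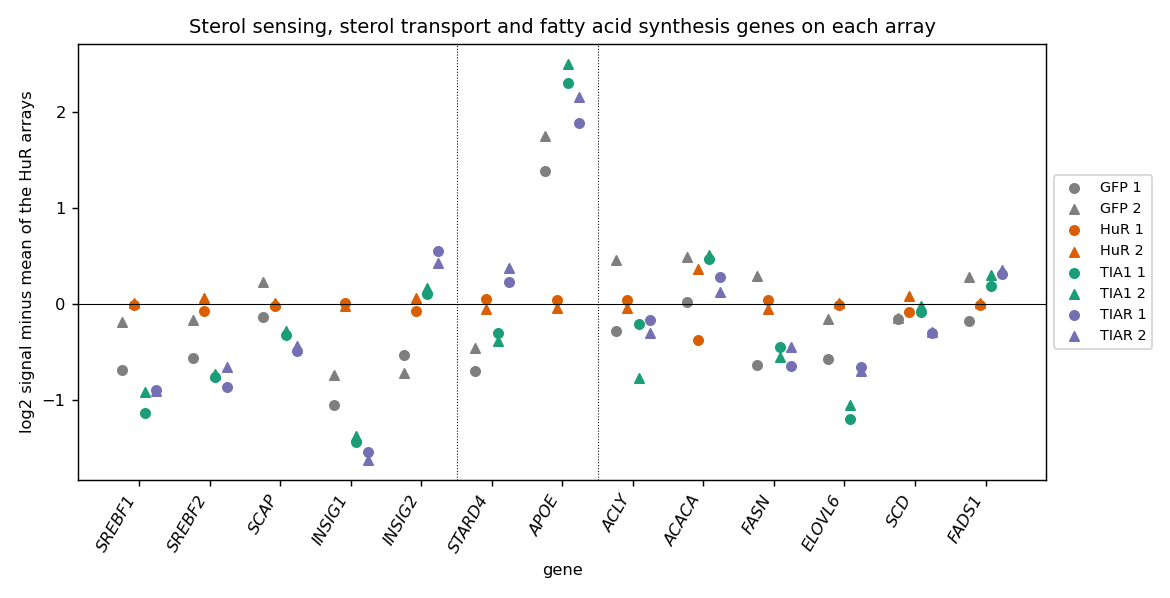
Signal of the sterol sensing (left), sterol transport (middle) and fatty acid synthesis genes (right) on each array, as log2 signal minus the mean of the HuR arrays. Circles are replicate 1 and triangles replicate 2. INSIG1 lies lowest, between -1.37 and -1.62 on the TIA arrays, APOE highest, between 1.89 and 2.50, and among the fatty acid genes ELOVL6 lies lowest, between -0.65 and -1.19 on the TIA arrays.

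In the fatty acid branch 2 of 6 genes fell and 0 rose in either comparison, where 17.4% and 12.2% of all genes fell and 24.2% and 18.7% rose. The 6 genes had a median of -0.27 for TIA1 and -0.26 for TIAR. ELOVL6, which lengthens palmitate to stearate, read 0.46 and 0.48 on HuR, -0.10 and 0.32 on GFP, -0.73 and -0.58 on TIA1 and -0.18 and -0.23 on TIAR. The HuR arrays were highest and the TIA1 arrays lowest. It fell by 1.12 ± 0.10 for TIA1 (adjusted p = 0.0041), a call of downregulation, and by 0.67 ± 0.09 for TIAR (adjusted p = 0.013). A second probe gave larger differences, of -1.43 and -2.10 (adjusted p = 0.0029 and 0.0038), past 2-fold in both lines.

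FASN, the fatty acid synthase, fell by 0.49 ± 0.10 and by 0.55 ± 0.12 (adjusted p = 0.023 and 0.034). Its signals were 4.59 and 4.50 on HuR, 4.10 and 3.99 on TIA1 and 3.90 and 4.09 on TIAR, while the GFP arrays read 3.91 and 4.83, below and above both HuR arrays. ACLY, which supplies cytosolic acetyl-CoA, gave -0.49 and -0.23, and ACACA, the carboxylase that makes malonyl-CoA, gave 0.49 and 0.21, with HuR arrays as far apart as 2.03 and 2.77. The desaturase SCD gave -0.05 and -0.29 and the desaturase FADS1 gave 0.25 and 0.34. None of these passed (adjusted p = 0.060 to 0.75).

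**Figure D4:**
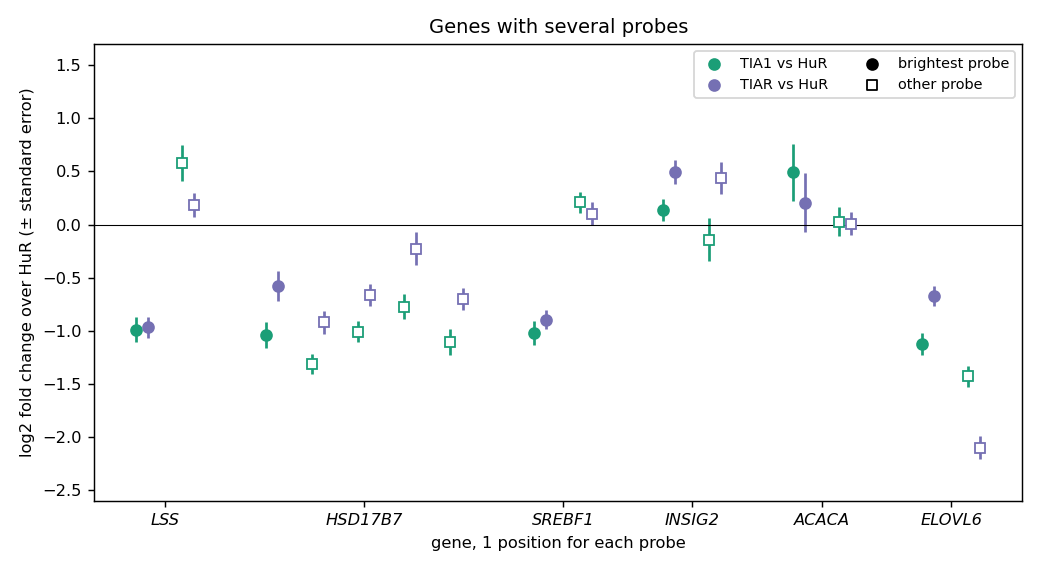
Log2 fold change over HuR-expressing cells, with standard error, of every tested probe of the 6 genes with several such probes, for TIA1 (green) and TIAR (purple). Filled circles are the brightest probe, which stands for the gene, and open squares the others. HSD17B7 and ELOVL6 probes all lie below 0, whereas the second probes of LSS (0.58 and 0.19) and SREBF1 (0.21 and 0.10) lie on the other side of 0 from the first.

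Several genes were measured by more than 1 probe, and the probes of LSS and SREBF1 differed in direction in both comparisons, and those of INSIG2 for TIA1. Of 40 probes for the 30 genes, 38 were well above background on both arrays of some line. The bright LSS probe, named for NM_002340, gave -0.99 and -0.97, while the dim one, named for NM_001001438, gave 0.58 (adjusted p = 0.055) and 0.19 (adjusted p = 0.27). The dim probe read -2.47 and -2.49 on HuR and -2.11 and -1.69 on TIA1, so the arrays of the lines did not overlap in that direction either. ELOVL6 was called for TIAR with the mean of its probes but not with the brightest. The second ACACA probe gave 0.03 and 0.01.

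TIAR and TIA1 were next compared with each other. In TIAR- versus TIA1-expressing cells 0 of 29 members were called by limma, where 2.38% of 20778 genes were called and 3.43% passed the adjusted p. At an unadjusted p under 0.05 there were 4 members of 29, against 23.4% of all genes. The methods' t-test, which pairs arrays of the same number, gave 0 members, but after adjustment it called 0 genes in any comparison. No gene at all was called with the replicate number as a block, with no filter on dim probes or without TIAR 1. The lowest adjusted p was that of STARD4, at 0.068, whose signals of -0.49 and -0.34 on TIAR lay above -1.02 and -1.10 on TIA1. CYP51A1 gave -0.49 (adjusted p = 0.12) and HSD17B7 0.46 (adjusted p = 0.21). The 16 enzymes had a median of 0.07, with 10 higher and 6 lower.

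Against GFP-expressing cells no line had a called gene by limma, among the members or among all genes (0.0% of 20732 for TIA1, 0.0% of 21171 for TIAR and 0.0% of 21372 for HuR). At an unadjusted p under 0.05 there were 9 of 29 members for TIA1, 7 for TIAR and 8 for HuR. Of all genes there were 4452 (21.5%), 3417 (16.1%) and 3614 (16.9%). With all 8 arrays in one fit 9.05% of all genes were called for TIA1, 6.02% for TIAR and 4.07% for HuR, and 2, 1 and 1 members. The t-test without adjustment called 1 member, INSIG2 for TIAR, where it called 1.81% of all genes. Over the 16 enzymes the median was -0.50 for TIA1, -0.42 for TIAR and 0.31 for HuR. After quantile normalization the enzymes' medians relative to that of all genes moved from -0.52 to -0.83 for TIA1, from -0.42 to -0.75 for TIAR and from 0.34 to 0.03 for HuR. Both TIA1 arrays lay below both GFP arrays for 11 of 16 enzymes, which held for 26.2% of all genes, and both TIAR arrays for 8 of 16, against 24.6%. Both HuR arrays lay above both GFP arrays for 7 of 16, against 28.1%.

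Those values differed between the GFP arrays. GFP 1 lay below GFP 2 for 15 of 16 enzymes, against 56.6% of all genes. GFP 2 lay above all 4 TIA arrays for 16 of 16 enzymes (29.5% of all genes) and below both HuR arrays for 7 (40.9%). GFP 1 lay above all 4 TIA arrays for 8 of 16 (36.9%) and below both HuR arrays for 14 (46.9%). With GFP 2 as the only control the median of the enzymes was -0.71 for TIA1, -0.64 for TIAR and -0.07 for HuR. With GFP 1 as the only control it was -0.33, -0.22 and 0.58.

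Which single genes were called also differed between the GFP arrays. With GFP 2 alone, MVK, LSS and HSD17B7 were called lower for TIA1, LSS lower and INSIG2 higher for TIAR, and APOE lower for HuR. In those fits 11.5% of all genes were called for TIA1, 6.72% for TIAR and 8.57% for HuR, so the members' 3, 2 and 1 of 29 were near or below that share. With GFP 1 alone, MVD and HSD17B7 were called lower and APOE higher for TIA1, and MVD lower and STARD4 and INSIG2 higher for TIAR. For HuR, CYP51A1 and INSIG1 were then called higher and MVD and APOE lower. In these fits 23.0%, 20.5% and 23.8% of all genes were called, a larger share than the 3, 3 and 4 of 29 members. HSD17B7 in TIA1, INSIG2 in TIAR and APOE in HuR were called with either GFP array, by -1.45 and -1.01, by 1.21 and 1.02, and by -1.75 and -1.39. The high background of GFP 1 moved with these values, and its part in them was not tested.

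**Figure D5:**
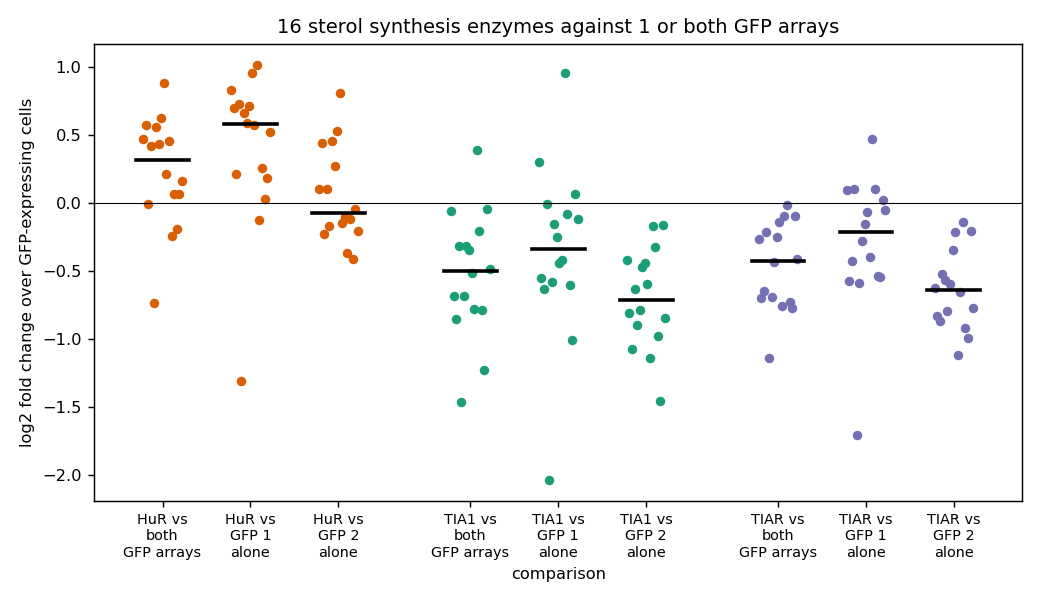
Log2 fold change of each of the 16 sterol synthesis enzymes (points) over GFP-expressing cells in the HuR, TIA1 and TIAR lines, with both GFP arrays, GFP 1 alone or GFP 2 alone as control. Black bars are medians, at 0.31, 0.58 and -0.07 for HuR, -0.50, -0.33 and -0.71 for TIA1 and -0.42, -0.22 and -0.64 for TIAR.

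The wider pathway was read from 41 companion genes. In TIA1- versus HuR-expressing cells 3 rose and 17 fell, with 6 downregulated, where 4.74% of all genes were downregulated. In TIAR-expressing cells 6 rose and 13 fell, with 4 downregulated, against 2.83% of all genes. The 16 further sterol genes are synthesis enzymes together with transport and other genes. Of these 5 fell for TIA1 and 4 for TIAR, and of 16 further fatty acid genes 10 and 7. Among 9 genes of the LXR response 1 rose and 2 fell for TIA1, and 2 rose and 2 fell for TIAR. Of all genes 24.2% rose and 17.4% fell for TIA1, and 18.7% rose and 12.2% fell for TIAR, so that the LXR counts lay near the background. Median differences were -0.11 and -0.01 for the sterol genes, -0.58 and -0.40 for the fatty acid genes, and 0.03 and 0.15 for the LXR genes.

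SCARB1 was among the companion genes downregulated in both comparisons. This HDL receptor read 5.50 and 5.47 on HuR, 5.21 and 5.70 on GFP, 4.14 and 4.30 on TIA1 and 4.35 and 4.46 on TIAR. It fell by 1.27 ± 0.10 and by 1.08 ± 0.10 (adjusted p = 0.0036 and 0.0068), and its GFP arrays lay with the HuR arrays.

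Of 41 companion genes 1 was called between the TIA lines, a share near the 2.38% of all genes called. It is named after its values were seen. MID1IP1, an activator of acetyl-CoA carboxylase, was 1.39 ± 0.13 higher in TIAR- than in TIA1-expressing cells (adjusted p = 0.026). The call was lost in 8 of 16 alternative settings, among them the replicate block (adjusted p = 0.082), no filter on dim probes (adjusted p = 0.23) and leaving out any of the 4 arrays (adjusted p = 0.10 to 0.12). It read 2.84 and 3.05 on TIAR, 1.53 and 1.57 on TIA1, 2.11 and 2.13 on HuR and 1.47 and 1.83 on GFP. The TIAR arrays stood above all others, and MID1IP1 fell for TIA1 (-0.57) and rose for TIAR (0.83) against HuR. As the RNA of whole cultures was measured, fewer cells with a transcript and less of it in each cell cannot be told apart for any of these genes.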

How the data were processed

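Scanner output of 8 one-colour Agilent SurePrint G3 Human 8x60K v2 arrays was used. The authors deposited intensity values (processed signal, background-subtracted and detrended within the array, not normalized between arrays). Their deposited log2 table was quantile-normalized, the TIAR arrays apart from the others, and served as an alternative. Per the labels, limma was among the submitters' tools.

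Processed signals were taken as log2 values less the 75th percentile of the same array. Outlier spots were dropped, and a probe's remaining spots were averaged. A probe entered a comparison if 2 arrays of the same line had it well above background. The test was limma 3.58.1 in R 4.3.3 on the 4 arrays of each comparison, tested on simulated data. Calls needed 2-fold and an adjusted p under 0.05. A gene was represented by its brightest probe well above background in a line. Shares of all genes count 1 probe a gene. Adjustment was over all probes tested. Coordinates are those of the array files (hg19) and of RefSeq promoters (GRCh38.p14), and no genome was used. The members and lists were chosen with earlier results of these data known. All members are named, and of the companion genes those called in both comparisons with HuR or in any with GFP. A gene under this rule is not reported here. The number of arrays, 2 per line, limits the precision. Replicate numbers were not taken to pair arrays in limma, while the methods' t-test pairs arrays of the same number. Alternatives were other background correction, normalization, filters, fits and probe rules, that t-test and leaving out each array.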

Additional observations from a re-analysis of the deposited data

How the results depend on the processing

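No called member changed direction in any alternative setting, while the enzymes' median for HuR versus GFP, which had no call, was 0.31 and turned to -0.07 without GFP 1. The 8 member calls of TIA1 versus HuR, where 13.2% of all genes were called, were 3 by the methods' t-test at an unadjusted p (7.01%). They were 0 after adjustment (0% of all genes). With no minimum fold they were 19, where 24.2% of all genes rose and 17.4% fell. Among the fits with 1 array left out they were fewest without HuR 1. The 5 of TIAR versus HuR (10.2% of all genes called) were 3 by that t-test unadjusted (4.74%) and 0 adjusted (0%). With no minimum fold they were 21, where 18.7% of all genes rose and 12.2% fell. They were fewer without HuR 1 and without HuR 2. The 13 sterol enzymes that fell for TIA1 were 8 with no filter on dim probes. They were 9 with all 8 arrays in one fit and 0 by the adjusted t-test. In those settings 10.5%, 9.34% and 0% of all genes were called. Without HuR 1 or without HuR 2 they were fewer than with no filter, while their medians were -0.83 and -0.77. The 13 for TIAR were 4 with no filter, 6 with all 8 arrays in one fit and 0 by the adjusted t-test, and 0 to 12 with 1 array left out. These counts of sterol enzymes were compared across settings after seeing the data. Against GFP the 0 calls became 2 for TIA1, 1 for TIAR and 1 for HuR with all 8 arrays in one fit, where 9.05%, 6.02% and 4.07% of all genes were called. TIAR had 1 by the unadjusted t-test, which called 1.81% of all genes. Leaving out 1 array gave member calls only where a GFP array was left out, as given above with the shares of all genes. TIAR versus TIA1 had 0 throughout. The ELOVL6 call for TIA1 was lost with normexp background correction. The cause of these changes was not tested.

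With the replicate number as a block, member calls were 8 and 5 in the comparisons with HuR. In those fits 13.3% and 10.2% of all genes were called, and 13 and 9 sterol enzymes fell. Deviations of same-numbered arrays correlated at -0.065 to 0.135. Quantile normalization moved the median of all genes against GFP to 0.21 for TIA1, 0.18 for TIAR and 0.17 for HuR. Arrays give no read depth, and signal over background limited ABCA1.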
